A study of Mus musculus with 20 samples.

Results

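Glycogen is the branched glucose store of the liver, and the genes described here encode proteins that build it, break it down or switch between these processes. The members are 8 listed genes out of the 46603 gene identifiers in the count files, found by matching Ensembl identifiers to GENCODE M21 symbols. They are Ppp1r3b, Ppp1r3c, Ppp1r3g, Gys2, Pygl, Gbe1, Ugp2 and Gyg. Ppp1r3g was picked for its fall after partial hepatectomy, so its values in all 4 groups are given as a description with no test. The 8 genes are called glycogen metabolism genes here.

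Liver RNA of male mice aged 2 months was measured by poly(A) RNA sequencing in 20 libraries, in 4 groups of 5. The wild-type mice (WT) were C57BL/6J animals bought from a vendor. The knockout mice (KO) carried Eed alleles whose exons between loxP sites (at exons 3 and 6) are removed in hepatocytes by a Cre recombinase under the albumin promoter, so other liver cells keep Eed. EED is a core subunit of polycomb repressive complex 2, which methylates histone H3. Each mouse gave lobes 1, 2 and 3 at the time of partial hepatectomy (PHx, the surgical removal of most of the liver), called baseline here, and lobes 4, 5 and 6 afterwards. Per genotype, the later tissue was taken at 30 h from 1 mouse, at 40 h from 2 and at 48 h from 2. Genotype cannot be told apart from colony of origin, nor the response to PHx from the lobes sampled. The design asks how the loss of Eed in hepatocytes changes expression in resting and in regenerating liver.

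Total counts ran from 21634890 to 30461351 per library, and no pair of libraries was identical. Levels are given as CPM, counts scaled to the total of each library multiplied by its TMM factor, a scaling factor from edgeR. This factor ran from 0.6697 to 0.8058 in WT and from 0.9831 to 1.187 in KO at baseline. After PHx the factor ran from 0.8909 to 1.066 in WT and from 0.977 to 1.51 in KO. CPM values and overlaps between groups therefore depend on it. As a check of the labels, Eed stood at 15.32 to 18.37 CPM in WT baseline libraries and at 3.828 to 7.522 CPM in KO baseline libraries. After PHx it stood at 14.64 to 23.2 CPM in WT and 2.745 to 5.823 CPM in KO, and the groups did not overlap at either stage. The summed level of 7 hepatocyte markers was 115000 to 135000 CPM in WT and 73400 to 98400 CPM in KO at baseline, then 68600 to 113000 CPM and 37100 to 85300 CPM after PHx, with a count for all 7 in every group. Skeletal muscle markers stayed at or below 2.28 CPM in sum.

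Liver stores glucose by turning it into UDP-glucose, which glycogen synthase adds to chains started on glycogenin and branched by the branching enzyme. Glycogen phosphorylase releases glucose 1-phosphate from the chain ends. Phosphorylation turns phosphorylase on and synthase off, and protein phosphatase 1 (PP1) does the reverse when targeting subunits of the PPP1R3 family hold it on glycogen. The liver draws on this store between meals to supply glucose to the blood.

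The 8 genes lie on 8 chromosomes of mm10, with coordinates of the whole gene from GENCODE M21. Ppp1r3b (ENSMUSG00000046794) lies at chr8:35375739-35388139, Ppp1r3c (ENSMUSG00000067279) at chr19:36731731-36736653 and Ppp1r3g (ENSMUSG00000050423) at chr13:35958839-35970388. Gys2 (ENSMUSG00000030244) lies at chr6:142422613-142473109, Ugp2 (ENSMUSG00000001891) at chr11:21321138-21371201 and Gbe1 (ENSMUSG00000022707) at chr16:70313949-70569716. Gyg (ENSMUSG00000019528) lies at chr3:20122084-20155317 and Pygl (ENSMUSG00000021069) at chr12:70190811-70231488. Ppp1r3b, Ppp1r3g, Pygl and Ugp2 overlap another annotated gene, and without a stated strand setting reads of a gene on the opposite strand cannot be told apart.

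**Figure D1:**
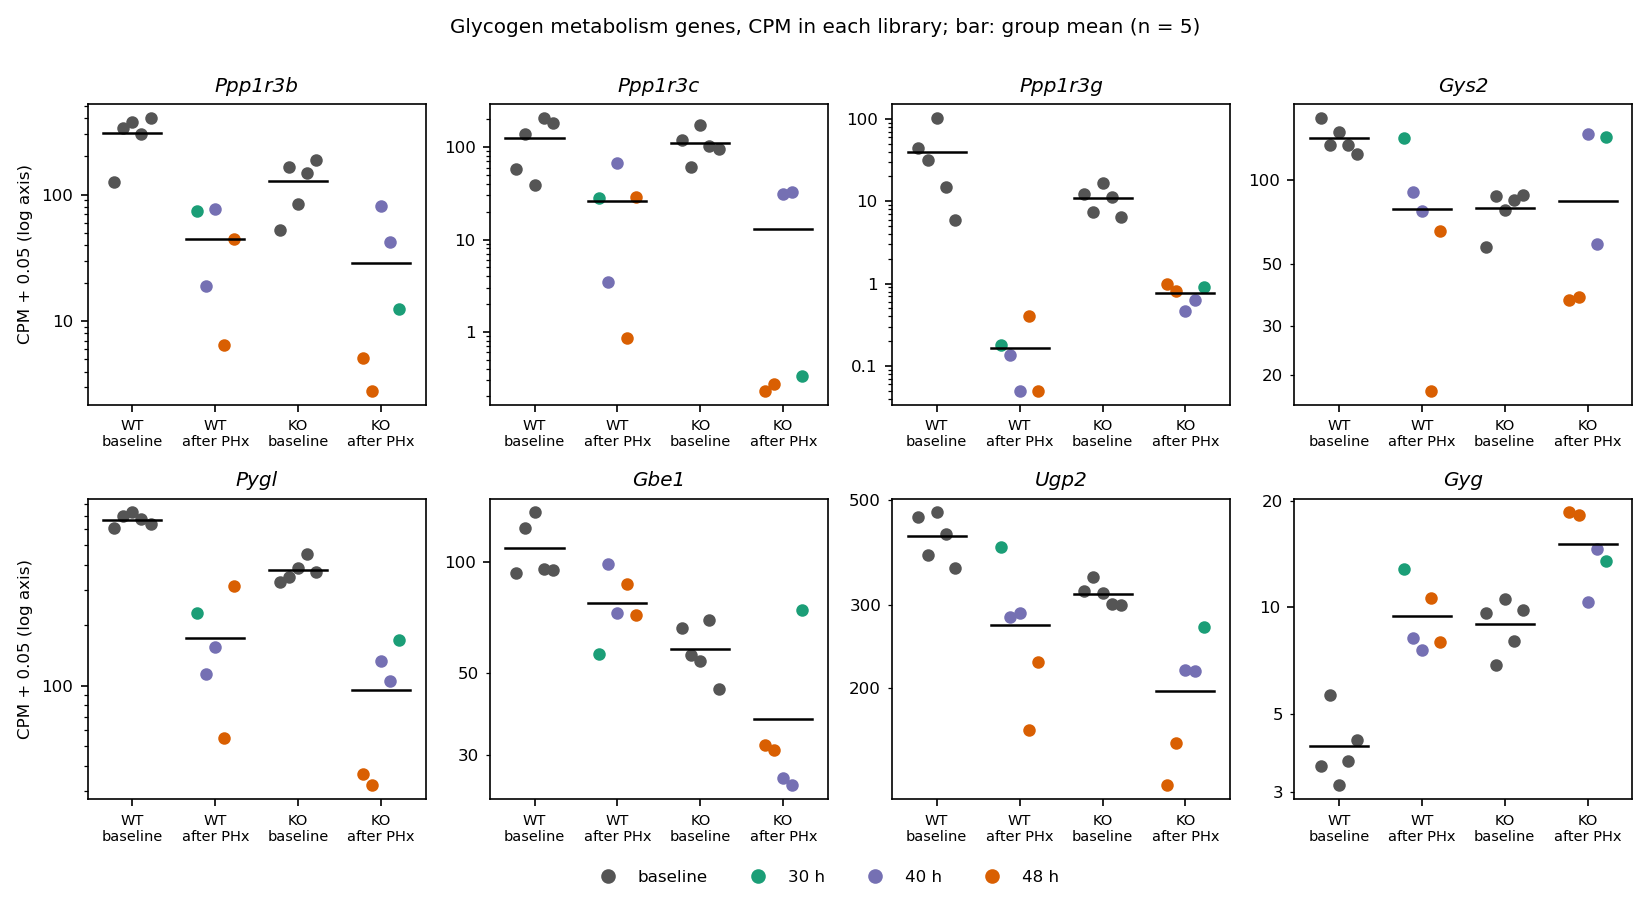
Level of each of the 8 genes in each library (CPM plus 0.05 on a log axis), by group, with points coloured by the time of collection and a bar at the group mean (n = 5). The means of the 3 PP1 targeting subunits and of Pygl are lower after PHx in both genotypes, and that of Gyg is higher.

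Differences were tested with edgeR's quasi-likelihood test over 14661 genes, and a gene is called at a Benjamini-Hochberg adjusted p under 0.05. All 8 glycogen metabolism genes passed the filter on low counts. The 7 genes other than Ppp1r3g were tested. Between the genotypes at baseline, 1 of the 7 was higher in KO and 1 was lower, beside 11.1% of all genes called higher and 4.89% called lower. After PHx, 1 of the 7 was higher in KO and 1 was lower, beside 16% and 8.20% of all genes. In WT 1 rose after PHx and 3 fell, beside 11.4% and 8.68% of all genes, and in KO 1 rose and 3 fell, beside 17.5% and 12.1%. The median log2 change of the tested members was -0.83 between genotypes at baseline, against -0.03 over all genes tested. It was -0.62 between genotypes after PHx (-0.01 over all genes), -0.85 in the WT response (0.04 over all genes) and -0.68 in the KO response (0.10 over all genes).

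These counts differed between fits. The fit shared 1 estimate of the spread over all 20 libraries. For most members the libraries after PHx varied more, relative to their mean, than those at baseline. For Pygl in WT the SD was 100.8 CPM around 173.4 after PHx, against 48.2 around 671.3 at baseline. With only the libraries compared in the fit, 6 of the 7 genes were called between genotypes at baseline, beside 39.5% of all genes in that fit, and 0 of the 7 after PHx, beside 9.69%. With the collection time as a term, 4 of 7 were called at baseline, 6 of 7 after PHx and 7 of 7 in the WT response, beside 23.4%, 32.9% and 27.1% of all genes. The time fit has 1 or 2 mice per genotype and time. The cause of these differences was not tested.

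The changes are also relative to the scaling of the libraries. With library size alone as the scale, in place of TMM, the median of all genes shifted by 0.48 between genotypes at baseline, by 0.38 after PHx, by 0.36 in the WT response and by 0.27 in the KO response. Of the genes called, those called higher then moved from 69.5% to 96.9% at baseline, from 66.1% to 92.9% after PHx, from 56.8% to 86.7% in the WT response and from 59.1% to 80.9% in the KO response. The log2 changes below are therefore changes against the bulk of the genes. Statements on whether groups overlap rest on the TMM-scaled CPM, and overlap with library size alone was not tested. Calls of members that were lost with another scaling are named. For the other pathway genes such losses are named only in part, and calls gained are not named.

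**Figure D2:**
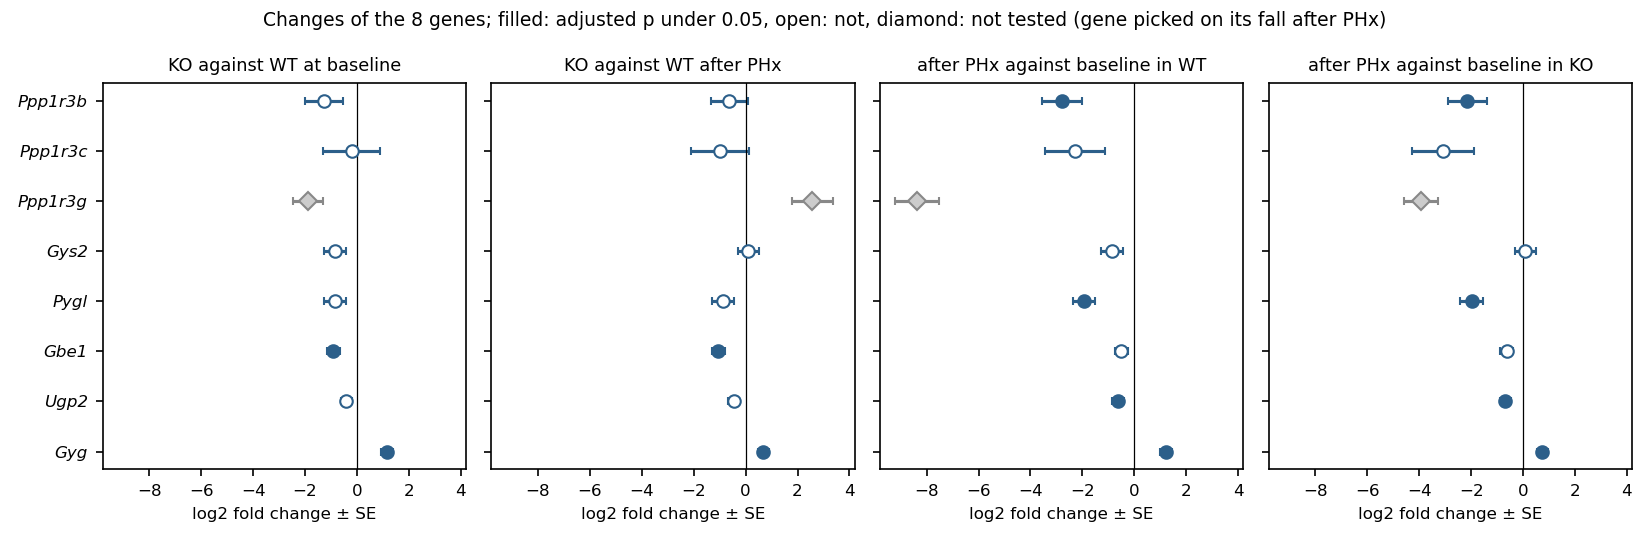
Log2 fold change with its standard error for the 8 genes in 4 comparisons; filled circles mark an adjusted p under 0.05, open circles do not, and diamonds mark the changes of Ppp1r3g, which were not tested. Gyg lies above 0 in all 4 panels, and Pygl lies below 0 in all 4.

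Of the targeting subunits of PP1, Ppp1r3b encodes the main targeting subunit of liver, which directs PP1 to glycogen synthase. Its level in the 5 WT baseline libraries was 124.9, 333.8, 371.6, 299.8 and 405.1 CPM, and in the 5 WT libraries after PHx it was 74.43, 18.96, 76.97, 6.381 and 44.75 CPM. The highest WT library after PHx was below the lowest one at baseline. Ppp1r3b fell in WT by 2.79 on the log2 scale (SE 0.765, edgeR adjusted p 0.0146), a 6.93-fold change. In KO it was at 52.17, 165.5, 83.66, 148.9 and 187.2 CPM at baseline and at 5.094, 2.767, 81.74, 41.86 and 12.54 CPM after PHx. The KO groups overlapped through 1 mouse, KO 10, whose level after PHx was 97.7% of its own baseline, while the other 4 KO mice stood at 1.67% to 28.1%. Ppp1r3b fell in KO by 2.15 (SE 0.747, edgeR adjusted p 0.0369), and this call was lost in 8 of 28 alternative fits, 6 of which left out 1 KO library (baseline 8, 11 or 12, or after PHx 7, 8 or 12), with adjusted p up to 0.0871. It was also lost with library size alone as the scale (-1.89, adjusted p 0.0536). Between genotypes Ppp1r3b was not called at baseline (-1.27, SE 0.726, adjusted p 0.249) or after PHx (-0.62, SE 0.72, adjusted p 0.565). With only the baseline libraries in the fit its adjusted p at baseline was 0.0139, and with the collection time as a term the change after PHx was -1.45 (adjusted p 0.0398).

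Ppp1r3c encodes protein targeting to glycogen, a subunit that is found in many tissues and binds PP1, synthase and phosphorylase. At baseline its level was 58.64, 140.3, 38.9, 208.7 and 182.9 CPM in WT and 119, 61.02, 172.2, 103.4 and 95.68 CPM in KO. The genotypes overlapped widely at this stage (log2 change -0.19, SE 1.1, edgeR adjusted p 0.933). After PHx the 5 WT libraries held 28.43, 3.436, 68.11, 0.8154 and 28.47 CPM, and the 5 KO libraries held 0.1798, 0.2196, 30.97, 33.05 and 0.284 CPM. In KO, mice 7, 8 and 12 thus held under 1 CPM, and mice 10 and 11 held levels like those of WT 1 and WT 5. All 5 KO libraries after PHx were below all 5 at baseline, and the log2 change was -3.09 (SE 1.19, adjusted p 0.056). It was called when the mouse was a block in the fit (-5.83, adjusted p 0.0307, with edgeR, and -6.01, adjusted p 0.00398, with limma voom). It was also called with the collection time as a term, with DESeq2 (adjusted p 0.025), and when 1 library was left out, either KO after PHx 10 (adjusted p 0.0331), KO after PHx 11 (0.0404) or WT after PHx 4 (0.0426). In WT the change was -2.28 (SE 1.15, adjusted p 0.168), and mouse 3 stood at 175% of its baseline. With the mouse as a block in limma voom the WT change was -3.27 (adjusted p 0.0303), and with the mouse as a block in edgeR it was -3.86 and not called (adjusted p 0.179). With the collection time as a term it was -2.40 (adjusted p 0.0265). Between genotypes after PHx Ppp1r3c was not called (-1.0, SE 1.12, adjusted p 0.551), but it was with the collection time as a term (-3.85, adjusted p 0.00372).

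Among the 10 libraries after PHx, Ppp1r3c was set beside markers of dividing cells. Taken from the highest Ppp1r3c level to the lowest, the 10 libraries were WT 3, KO 11, KO 10, WT 5, WT 1, WT 2, WT 4, KO 12, KO 8 and KO 7. Their summed CPM of 8 proliferation markers was, in the same order, 51.3, 92.2, 680, 1030, 303, 1.52, 1.45, 11.4, 33.3 and 11.3. The 5 libraries with the most Ppp1r3c were thus the 5 with the most proliferation marker RNA, and the same 5 held the most Ppp1r3b. The baseline libraries did not follow this order, since the marker sum was 2.16 to 4.62 CPM in WT and 21.4 to 120 CPM in KO while all 10 held at least 38.9 CPM of Ppp1r3c. This order was read after the values were seen, the collection times are mixed along it, and a relation between the 2 measures was not tested.

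Ppp1r3g encodes a targeting subunit whose level in liver is known to change between fasting and feeding. At baseline its 5 WT libraries held 43.75, 32.04, 103.5, 14.72 and 5.872 CPM, and its 5 KO libraries held 12.25, 7.437, 16.59, 11.34 and 6.479 CPM. All 5 KO values lay inside the WT range. The log2 change in KO against WT was -1.88 at baseline, and it ran from -2.16 to -1.15 over 27 alternative fits, the last without WT baseline 3, the library with the highest level.

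After PHx the Ppp1r3g counts themselves were 3, 2, 0, 10 and 0 reads in the 5 WT libraries and 31, 35, 11, 21 and 18 reads in the 5 KO libraries. A count of 0 allows up to 3 reads. This limit covers counting error alone, because no molecular identifiers were used. As CPM the WT libraries held 0.1308, 0.08699, 0, 0.3545 and 0, and the KO libraries held 0.929, 0.7687, 0.4196, 0.5837 and 0.8521. Every KO library lay above every WT library, the reverse of the order of the means at baseline. The log2 change in KO against WT after PHx was 2.57, and it ran from 2.22 to 3.68 over 27 alternative fits.

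As a description of the change the gene was picked for, the log2 change of Ppp1r3g after PHx was -8.38 in WT and -3.92 in KO. Over 28 alternative fits it ran from -9.45 to -7.65 in WT, where the 5 libraries after PHx held 15 reads in all and 2 of them held 0, and from -4.06 to -3.67 in KO. The 4 WT mice with a number at both stages stood at 0% to 2.41% of their own baseline, and the 5 KO mice at 2.53% to 13.2%. The difference between these changes was 4.46.

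Of the 3 subunit genes, Ppp1r3c and Ppp1r3g have a promoter sequence in the RefSeq table (GRCm38.p6), and they are shown for that reason. The stretches below run 5′ to 3′ along the strand of the gene, end towards its start, and leave out bases that lie in an exon of GENCODE M21. Capitals mark CACGTG, the E-box bound by MYC, USF and carbohydrate response factors, and CCAAT or its reverse complement, both searched on either strand.
Ppp1r3c, chr19:36736654-36736854, minus strand: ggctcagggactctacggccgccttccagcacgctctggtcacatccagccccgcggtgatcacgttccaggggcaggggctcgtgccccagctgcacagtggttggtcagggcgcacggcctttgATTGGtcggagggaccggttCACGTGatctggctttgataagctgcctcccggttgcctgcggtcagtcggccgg
Ppp1r3g, chr13:35967656-35967852, plus strand: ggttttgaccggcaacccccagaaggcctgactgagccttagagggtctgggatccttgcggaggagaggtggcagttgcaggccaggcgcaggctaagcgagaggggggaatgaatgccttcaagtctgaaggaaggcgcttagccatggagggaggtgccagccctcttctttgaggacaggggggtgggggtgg
The Ppp1r3c sequence holds 1 E-box, 98 bases before the RefSeq start, and 1 CCAAT box. No E-box lies in the 250 bases before the RefSeq start of Ppp1r3g, and its 1 CCAAT box there lies in the exonic bases left out. Among 32851 promoters of 250 bases, 6.02% hold an E-box and 33.8% a CCAAT box, and 1.55% hold the cyclic AMP response element TGACGTCA, which is in neither of these. The ratio of observed to expected CpG was 0.772 for Ppp1r3c and 0.394 for Ppp1r3g, against a median of 0.373 over all promoters. That RefSeq start lies inside the GENCODE gene given above, so the Ppp1r3g stretch is intronic in the longest GENCODE transcript and ends just before the start of a shorter one. These matches describe letters, and binding was not measured.

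The family of PP1 targeting subunits was compared per length, as CPM per kilobase of exon summed over the 7 genes Ppp1r3a to Ppp1r3g. The sum was 112 ± 30.9 (SD, n = 5) in WT and 66.3 ± 12.1 in KO at baseline, and 18.1 ± 14.2 in WT and 11 ± 11 in KO after PHx. Ppp1r3b and Ppp1r3c made up 43.2% and 39.9% of the sum in WT at baseline, and 32% and 60% in KO. Ppp1r3g made up 15.4% ± 14.4 in WT and 6.02% ± 1.74 in KO at baseline, then 0.98% ± 1.81 in WT and 6.47% ± 5.36 in KO after PHx. The share of Ppp1r3e, a subunit gene expressed in liver, was 1.53% at baseline and 19% ± 21.7 after PHx in WT, and 1.66% and 24.3% ± 22.9 in KO. Its own level was 3.965 and 3.351 CPM in WT and 2.786 and 2.516 CPM in KO, and it was not called in any comparison, so that its larger share after PHx stood beside a smaller total.

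**Figure D3:**
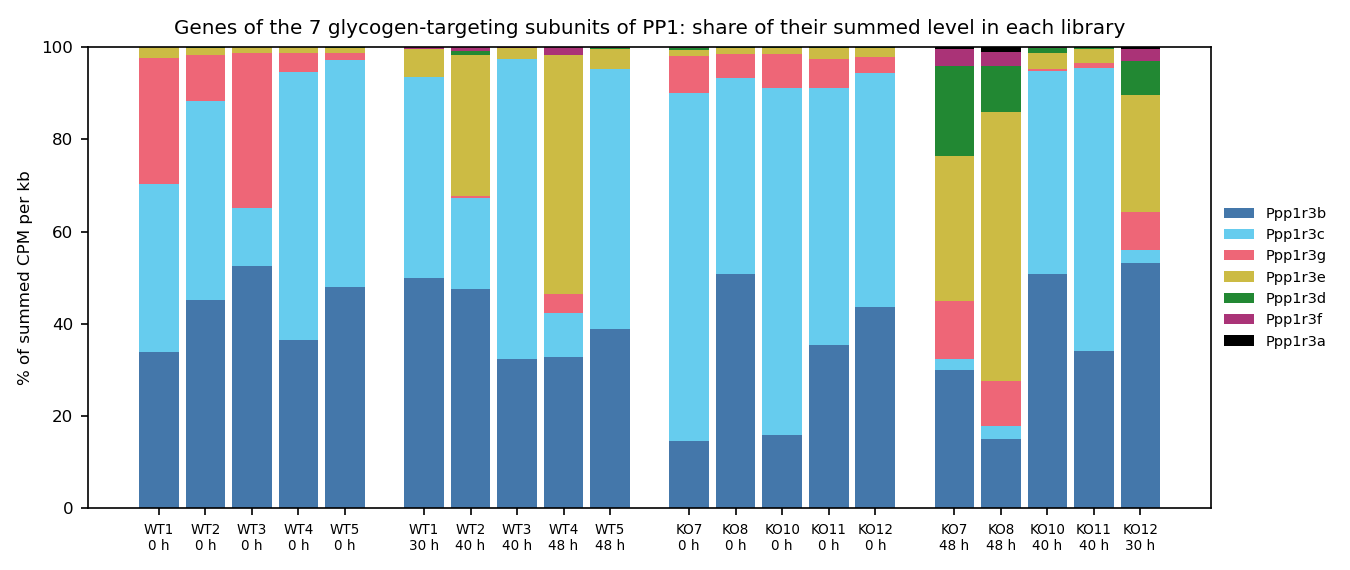
Share of each of the 7 PP1 targeting subunit genes in their summed CPM per kilobase, 1 bar per library (percent), with the mouse and the hours after PHx under each bar. Ppp1r3b and Ppp1r3c fill most of every bar at baseline, and Ppp1r3e fills a larger part in WT 2, WT 4, KO 7, KO 8 and KO 12 after PHx.

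Of the enzymes that build glycogen, Gys2, liver glycogen synthase, was not called in any comparison. Its level at baseline was 166.7, 132.9, 148.7, 133.3 and 123.7 CPM in WT and 57.48, 87.26, 77.73, 84.37 and 88.31 CPM in KO. All KO libraries were below all WT libraries. The log2 change was -0.84 (SE 0.417, edgeR adjusted p 0.183). The adjusted p was 0.000402 when only the baseline libraries were in the fit and 0.0428 with the collection time as a term. These 2 fits called 39.5% and 23.4% of all genes. With library size alone as the scale the baseline change was -0.36 (adjusted p 0.504). After PHx the libraries spread from 17.48 to 140.5 CPM in WT and from 36.95 to 145.2 CPM in KO, and the genotypes overlapped (0.10, SE 0.415, adjusted p 0.88). In WT all 4 numbered mice stood below their own baseline, at 13.1% to 68.1%. In KO 3 mice were lower and 2 were higher, with KO 10 at 187% and KO 12 at 161%. The response in WT was -0.85 (SE 0.418, adjusted p 0.157, and -1.01 with adjusted p 0.0158 with the collection time as a term) and in KO 0.09 (SE 0.415, adjusted p 0.885). The sign of the KO value depended on 1 library, since it was -0.20 without KO after PHx 10 and -0.18 without KO after PHx 12.

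Ugp2 encodes UDP-glucose pyrophosphorylase, which makes the sugar donor of the synthase. At baseline it stood at 458.3, 381.9, 470.2, 423.5 and 358.2 CPM in WT and at 319.9, 342.7, 318.1, 301.5 and 299.9 CPM in KO, without overlap (-0.40, SE 0.216, edgeR adjusted p 0.217). With library size alone as the scale this change was 0.085, so its sign depended on the scaling. It was called with only the baseline libraries in the fit (adjusted p 0.0105) and with the collection time as a term (0.0365). After PHx the range was 163.5 to 397.7 CPM in WT and 124.8 to 269.7 CPM in KO (-0.46, SE 0.217, adjusted p 0.126), a difference called with the collection time as a term (0.0138) and without KO after PHx 12 (0.0496). All 9 numbered mice stood below their own baseline, at 38.6% to 74% in WT and 39% to 89.9% in KO. Ugp2 fell in KO (-0.68, SE 0.217, adjusted p 0.0245), a call lost in 6 of 28 alternative fits, among them those without KO baseline 7 (0.0511), KO after PHx 7 (0.0887) or KO after PHx 8 (0.0773) and that with library size alone (-0.45, adjusted p 0.0866). In WT it fell by 0.62 (SE 0.217, adjusted p 0.0479), a call that was lost in 21 of 28 alternative fits, 16 of which left out 1 library (adjusted p up to 0.209, without WT after PHx 4). With library size alone as the scale the WT change was -0.26 (adjusted p 0.347), and with RLE scaling it was -0.59 (adjusted p 0.0686). With the mouse as a block in edgeR it was -0.79 (adjusted p 0.0561).

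Gbe1 encodes the branching enzyme and was lower in KO at both stages. At baseline its level was 93.68, 124.1, 136.6, 96.03 and 94.96 CPM in WT and 66.14, 56.08, 53.97, 69.71 and 45.44 CPM in KO. The groups did not overlap, and the log2 change was -0.90 (SE 0.255, edgeR adjusted p 0.0195). Gbe1 was not called without WT baseline 3 (adjusted p 0.0574), KO baseline 7 (0.0572) or KO baseline 12 (0.0526), with no filter on low counts (0.0503), and with library size alone as the scale (-0.42, adjusted p 0.174). After PHx WT stood at 56.33, 98.99, 72.83, 87.21 and 72.01 CPM and KO at 31.97, 31.01, 26.05, 24.85 and 74.09 CPM. Mouse KO 12, the KO animal taken at 30 h, was the only KO library inside the WT range. The change was -1.04 (SE 0.256, adjusted p 0.00562), and the call was lost in 1 of 27 alternative fits, that with only the libraries after PHx (adjusted p 0.0695). Between the stages Gbe1 was not called in WT (-0.49, SE 0.253, adjusted p 0.176) or in KO (-0.63, SE 0.254, adjusted p 0.065). The WT response was called with the collection time as a term (-0.51, adjusted p 0.0225) and without KO after PHx 12 (adjusted p 0.0441). The KO response was called without KO after PHx 12 (-1.03, adjusted p 0.00104), with the collection time as a term (-0.76, adjusted p 0.00157) and with the mouse as a block in limma voom (-0.76, adjusted p 0.0205).

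Gyg encodes glycogenin, the protein primer on which a glycogen particle starts, and was the 1 tested member called higher in KO at baseline. At baseline it stood at 3.51, 5.599, 3.088, 3.623 and 4.174 CPM in WT and at 9.591, 6.804, 10.48, 7.976 and 9.765 CPM in KO. Every KO library was above every WT library. Gyg was higher in KO by 1.16 on the log2 scale (SE 0.222, edgeR adjusted p 0.00137), and the call held in all 27 alternative fits. After PHx it stood at 12.78, 8.133, 7.496, 10.53 and 7.933 CPM in WT and at 18.49, 18.16, 10.3, 14.51 and 13.44 CPM in KO. The genotypes overlapped through KO 10 (0.68, SE 0.217, adjusted p 0.0282), and this call was lost in 7 of 27 alternative fits, 5 of which left out 1 library (WT after PHx 2, 3 or 5, or KO after PHx 7 or 8), with adjusted p of 0.0582 to 0.0746. Gyg rose after PHx in WT (1.23, SE 0.222, adjusted p 0.00106), where all 4 numbered mice stood at 145% to 291% of their baseline and the call held in all 28 alternative fits. It rose in KO (0.75, SE 0.217, adjusted p 0.0159), where 4 of 5 mice were higher and KO 10 stood at 98.2%, and with the mouse as a block in edgeR the adjusted p was 0.0559. KO libraries at baseline and WT libraries after PHx held like levels, 8.924 ± 1.5 and 9.373 ± 2.24 CPM (SD, n = 5 each), a pair that was not tested.

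Pygl encodes liver glycogen phosphorylase, the enzyme that breaks glycogen down, and it fell after PHx in both genotypes. Its level at baseline was 608.9, 700.4, 731.5, 674.9 and 640.8 CPM in WT and 329.7, 346.4, 385.7, 452.6 and 367.6 CPM in KO. After PHx it was 230.3, 114, 155.2, 54.56 and 312.8 CPM in WT and 36.26, 31.85, 133.1, 105.8 and 169.1 CPM in KO. Stages did not overlap in either genotype, and the numbered mice stood at 8.08% to 48.8% of their baseline in WT and at 9.19% to 46% in KO. The log2 change was -1.95 in WT (SE 0.427, edgeR adjusted p 0.00398) and -1.98 in KO (SE 0.427, adjusted p 0.00327), and both calls held in all 28 alternative fits. The difference between the 2 responses was -0.03 (SE 0.582, adjusted p 0.995). All KO libraries at baseline were below all WT libraries (-0.83, SE 0.415, adjusted p 0.181). The adjusted p was 6.55e-05 when only the baseline libraries were in the fit, where 39.5% of all genes were called. With library size alone as the scale the baseline change was -0.36 (adjusted p 0.53). After PHx the genotypes overlapped (-0.86, SE 0.415, adjusted p 0.138), and with the collection time as a term Pygl was called lower in KO (-1.13, adjusted p 0.00926).

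Within a library, the ratio of Pygl to Gys2 per kilobase of exon describes the balance of the 2 transcripts. It was 1.86 ± 0.256 in WT and 1.86 ± 0.293 in KO at baseline (SD, n = 5 each). After PHx it ran from 0.485 to 1.84 in WT and from 0.323 to 0.694 in KO. All 5 KO libraries after PHx were below all 10 baseline libraries, and only WT 5 after PHx lay inside the baseline range of 1.41 to 2.21. With the length of the longest transcript in place of all exons the mean ratios were 4.06, 2.16, 4.08 and 0.966, in the order WT baseline, WT after PHx, KO baseline and KO after PHx.

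**Figure D4:**
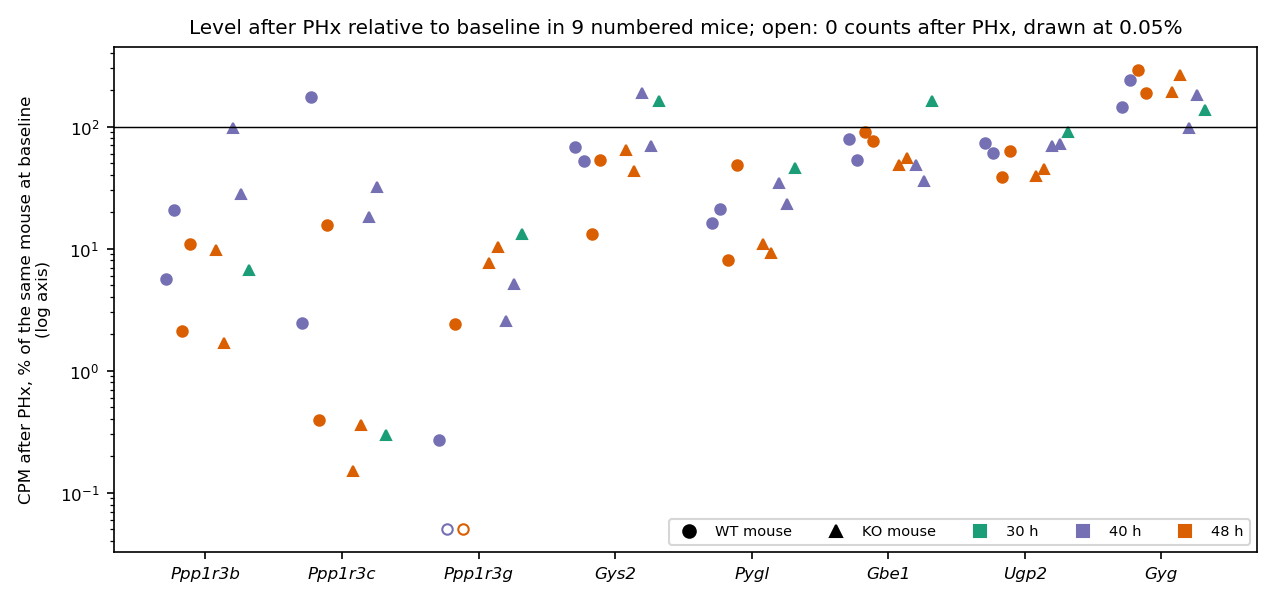
Level of each gene after PHx as a percent of the baseline of the same mouse (log axis), for the 4 WT and 5 KO mice with a number at both stages, coloured by hours after PHx. Pygl, Ugp2, Ppp1r3b and Ppp1r3g lie below 100% in all 9 mice, and Gyg lies above it in 8 of 9.

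None of the 7 tested members was called for a difference between the responses of KO and WT by edgeR, 0 of 7 had an unadjusted p under 0.05, and DESeq2 called 0. Over all genes 0.389% were called in this comparison. The values were 0.65 for Ppp1r3b, -0.81 for Ppp1r3c, 0.94 for Gys2, -0.14 for Gbe1, -0.06 for Ugp2 and -0.48 for Gyg, with adjusted p from 0.505 to 0.995 over the 7 genes. These values do not show that the responses were alike, since the standard errors were up to 1.56.

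Compared per length, Ugp2 had the highest mean level of the 8 genes in all 4 groups, from 136 CPM per kilobase in WT at baseline to 64.2 in KO after PHx. In KO after PHx Ugp2 and the next gene, Gys2, overlapped within 1 SD. In WT at baseline Ugp2 was followed by Pygl (97.4), Gys2 (53.1), Ppp1r3b (49.4), Ppp1r3c (46.2), Gbe1 (20.4), Ppp1r3g (14.8) and Gyg (1.71). The neighbours from Gys2 down overlapped within 1 SD, and by the longest transcript Pygl stood above Ugp2 in both baseline groups. In KO at baseline the order after Ugp2 (103) was Pygl (54.6), Ppp1r3c (40.5), Gys2 (29.7), Ppp1r3b (20.5), Gbe1 (10.9), Ppp1r3g (4.02) and Gyg (3.81). After PHx, Gys2 followed Ugp2 in both genotypes, at 29.5 in WT and 31.7 in KO, and Pygl stood at 25.1 and 13.8, within 1 SD of Gys2 and, by the longest transcript, above it in WT. Gyg stood last in WT at baseline. In KO at baseline Gyg and Ppp1r3g overlapped within 1 SD, and by the longest transcript Ppp1r3g stood last. After PHx Ppp1r3g stood last in both genotypes, at 0.0425 in WT and 0.264 in KO.

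Across the 20 libraries, which share the 4 groups, the log2 levels of Ppp1r3b and Pygl had a Pearson r of 0.92, Pygl and Ugp2 0.91, and Ppp1r3b and Ppp1r3c 0.90. Gyg had a negative r with each of the other 7, from -0.82 with Pygl to -0.57 with Gys2. Among 11928 protein-coding genes, those most like Ppp1r3g were Klk1b4 (r 0.91), Car1 (0.882), Gm7298 (0.877), Sucnr1 (0.873) and Pklr (0.871), the last being liver pyruvate kinase of glycolysis. Those most like Gys2 were Gpr180 (0.884), Ogfod2 (0.869), Slc10a1 (0.857), Clybl (0.855) and Acaa2 (0.855). Slc10a1 is the bile acid uptake transporter of hepatocytes, and Acaa2 is a thiolase of mitochondrial fatty acid oxidation.

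The rest of the pathway was read from a list of 40 other genes for glycogen enzymes, PP1 subunits, glucose entry and release and hormone input, of which 38 were tested. At baseline 2 of the 38 were higher in KO and 1 lower, beside 11.1% and 4.89% of all genes, and after PHx 9 were higher and 4 lower, beside 16% and 8.20%. After PHx, 2 rose and 4 fell in WT, beside 11.4% and 8.68% of all genes, and 7 rose and 7 fell in KO, beside 17.5% and 12.1%. With library size alone as the scale 8 rose and 2 fell in WT, beside 3796 and 582 of the 14661 genes. With the mouse as a block in edgeR the KO rises of Ppp1cc (adjusted p 0.0514), Gsk3b (0.0929) and Hk1 (0.103) were not called. In that fit a fall of Stbd1 in KO was called (0.0407). None of the 38 genes was called for the difference between the responses in the main edgeR fit, with 5 at an unadjusted p under 0.05, and DESeq2 called 1.

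Among genes of glycogen handling, Pygb, the brain form of phosphorylase, was higher in KO at baseline (3.725 against 13.13 CPM, log2 1.82, SE 0.583, edgeR adjusted p 0.0389), a call lost with the mouse as a block in limma voom (0.0682). Pgm2, a phosphoglucomutase, was higher in KO at baseline (1.49, adjusted p 0.0111) and rose in WT after PHx (2.05, adjusted p 0.00146). Ppp1r3d, another PP1 targeting subunit, was higher in KO after PHx (0.08621 against 0.956 CPM, 3.41, SE 0.73, adjusted p 0.00214), at a level of few reads per library. Phkb, the beta subunit of phosphorylase kinase, was lower in KO after PHx (-1.08, adjusted p 0.00351), as were the glycogen phosphatase gene Epm2a (-0.84, adjusted p 0.0312) and the glucagon receptor gene Gcgr (-1.09, adjusted p 0.0172). With the mouse as a block in limma voom the adjusted p of Epm2a was 0.0714. Gys1, the synthase of muscle and other tissues, was higher in KO after PHx (1.598 against 3.768 CPM, 1.24, SE 0.413, adjusted p 0.0344). Between the stages Epm2a fell in WT (4.672 against 2.041 CPM, -1.195, SE 0.273, adjusted p 0.00529) and in KO (3.132 against 1.135 CPM, -1.46, SE 0.276, adjusted p 0.00165), with no overlap of stages in either genotype, and both calls held in all 28 alternative fits.

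Of the genes for taking up and releasing glucose, G6pc, the catalytic subunit of glucose 6-phosphatase, was lower in KO at baseline (1240 against 599 CPM, -1.05, edgeR adjusted p 0.0325) and fell after PHx in WT (-2.25, adjusted p 0.000206) and in KO (-1.80, adjusted p 0.00136). Gckr fell in KO (-0.90, adjusted p 0.014) and was not called in WT (-0.51, adjusted p 0.163). Adra1b, an adrenergic receptor that signals glycogen breakdown, fell in WT (-1.72, adjusted p 0.0469) and in KO (-2.61, adjusted p 0.00537). In WT G6pc3, a glucose 6-phosphatase of many tissues, rose (0.98, adjusted p 0.0431), and with the mouse as a block the adjusted p was 0.136 in edgeR and 0.0876 in limma voom.

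Among the called pathway genes, the hexokinase genes Hk2 and Hkdc1 and the subunit gene Ppp1r3d had the highest log2 changes in KO against WT after PHx. Hk2, a hexokinase of muscle and growing cells, held 0.872, 0.7829, 1.141, 0.9572 and 0.6181 CPM in the 5 WT libraries after PHx and 21.73, 43.13, 3.547, 11.12 and 7.006 CPM in the 5 KO libraries. Every KO library was above every WT library (4.30, SE 0.576, edgeR adjusted p 3.09e-05). Hk2 rose in KO (3.14, adjusted p 0.000953), was not called in WT (0.24, adjusted p 0.798), and the difference between the responses was 2.90 (SE 0.755, adjusted p 0.0988). Hkdc1, a hexokinase-like gene, was higher in KO after PHx (3.19, adjusted p 0.0128) and rose in KO (4.5, adjusted p 0.00295). The glucose transporter gene Slc2a1 rose in KO (2.07, adjusted p 0.000747).

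Several of these pathway calls lay near the threshold and were lost when 1 library was left out. The 3 called at baseline became 1 without WT baseline 3 or 4 or KO baseline 7, 10 or 11, and 5 without KO after PHx 10. The 13 called between genotypes after PHx became 8 without WT after PHx 1, and the 6 called in the WT response became 3 without WT baseline 1, 2, 3 or 5 or WT after PHx 4. At baseline the call of Pygb was lost without any of the 5 WT libraries or without KO 7, 8, 10 or 11 (adjusted p 0.0514 to 0.0913), with log2 changes of 1.71 to 1.93 in these fits. That of G6pc was lost without WT 2, 3 or 4 or KO 7, 10, 11 or 12 (0.056 to 0.0975), at -1.07 to -0.88. After PHx, Gys1 was not called without WT 1, 2 or 5 or KO 8 or 11 (0.0628 to 0.104), Epm2a without WT 1 or 3 or KO 11 (0.0542 to 0.0974) and Gcgr without KO 8 (0.0543). In the WT response Adra1b was not called in 15 of the 20 fits that left out 1 library (up to 0.13, without WT after PHx 4), at -1.82 to -1.48, and G6pc3 in 8 of 20 (up to 0.14, without WT after PHx 2), at 0.75 to 1.05. In the KO response Gckr was not called without KO after PHx 8 (0.0537) or with only the libraries compared (-0.86, adjusted p 0.0699). In the WT response it was called with the collection time as a term (-0.53, adjusted p 0.0247) and without KO after PHx 12 (-0.51, adjusted p 0.044). With only the libraries after PHx in the fit, Hkdc1 (3.22, adjusted p 0.104), Gys1 (1.27, 0.141), Phkb (-1.04, 0.0583), Epm2a (-0.82, 0.182) and Gcgr (-1.06, 0.142) were not called between genotypes. With no filter on low counts the calls of G6pc at baseline (0.0646), Gys1 (0.0573) and Epm2a (0.0636) after PHx, and G6pc3 (0.051) and Adra1b (0.0677) in the WT response were lost. With library size alone as the scale, G6pc at baseline (-0.56, adjusted p 0.263) and Phkb, Epm2a and Gcgr after PHx (0.0788, 0.292 and 0.0588) were not called. Adra1b in the WT response was not called with library size alone (-1.34, adjusted p 0.0915) or with RLE scaling (-1.69, adjusted p 0.0511).

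**Figure D5:**
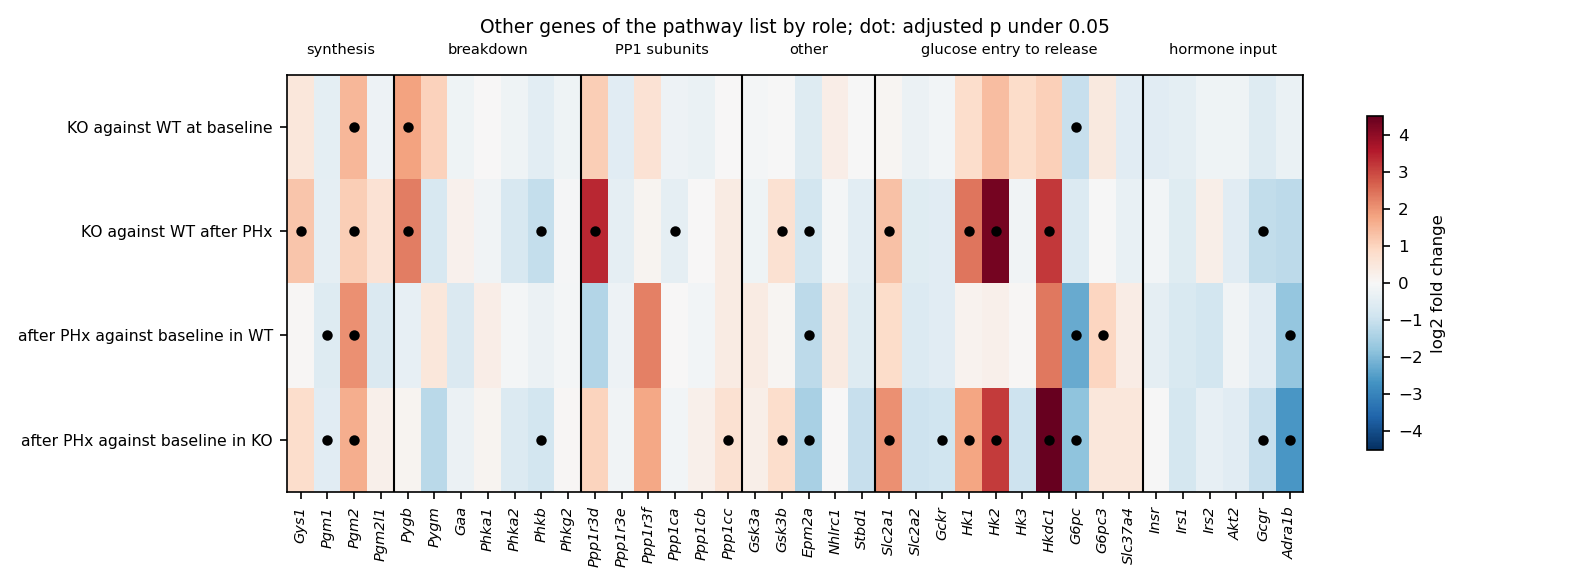
Log2 fold change (colour) of the 38 other pathway genes that were tested, grouped by role, in 4 comparisons (rows); dots mark an adjusted p under 0.05. G6pc has the deepest blue in the WT response to PHx and Adra1b in the KO response, and Hk2, Hkdc1 and Ppp1r3d the deepest red in KO against WT after PHx.

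Markers of other cells differed between the same groups. At baseline 5 of 8 stellate and fibroblast markers and 3 of 8 macrophage markers were higher in KO, and 2 of 7 hepatocyte markers were lower, beside 11.1% of all genes called higher and 4.89% called lower. Their summed levels were 448 to 594 CPM in KO and 174 to 292 CPM in WT for stellate cells, and 301 to 379 CPM in KO and 123 to 218 CPM in WT for macrophages. After PHx the stellate sums were 296 to 517 CPM in KO and 191 to 251 CPM in WT. The macrophage sums were then 88.4 to 304 CPM in KO and 67.4 to 275 CPM in WT. Cholangiocyte markers summed to 34.2 to 79.8 CPM in WT and 74.9 to 385 CPM in KO at baseline, and to 35.6 to 257 CPM and 135 to 597 CPM after PHx, where 4 of 7 tested were higher in KO, beside 16% of all genes. Endothelial markers summed to 231 to 271 CPM in WT and 250 to 304 CPM in KO at baseline, and to 99.2 to 195 CPM and 111 to 223 CPM after PHx. Between the stages 3 of 7 hepatocyte markers and 2 of 8 endothelial markers fell in each genotype, beside 8.68% of all genes in WT and 12.1% in KO. In KO 1 endothelial marker rose. Of 8 macrophage markers, 2 rose and 1 fell in WT, and 1 rose and 3 fell in KO. Of all genes 11.4% rose in WT and 17.5% in KO. In bulk tissue fewer cells of a type and less RNA per cell cannot be told apart, and the part of cell makeup in the values of the glycogen metabolism genes was not tested.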

How the data were processed

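Poly(A) RNA of 20 liver samples was sequenced paired-end from 1000 ng of RNA with an integrity number above 8, per the labels. Per the submitters' processing notes, reads went through FastQC 0.11.5 and Trimmomatic 0.36, while the design text names fastp for trimming, and which was used is not settled. Per the design text, uniquely mapped reads on mm10 were counted. The deposited files hold raw counts per Ensembl gene for each library. The aligner, counter and strand setting are not given in the sources used here.

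Counts were tested with edgeR 4.0.16 in R 4.3.3 (TMM, filterByExpr, quasi-likelihood, two-sided) over 14661 genes, with 1 fit of 4 group means, and adjusted by Benjamini-Hochberg. SEs are the log2 change divided by the root of F. The test was also run on simulated counts with the same dispersion for every gene and group and no pairing by mouse. Spread differed between the groups here, so that run cannot show how the test performs on these data. CPM use the TMM-scaled total, and 46005 of 46603 identifiers matched GENCODE M21. The 8 members are always named, with Gckr, Gys1 and G6pc, and per comparison so are the called pathway genes at either end of the log2 change, 3 at each. Of the pathway list, 2 genes are not reported here and enter no count of it. Likeness used log2 of CPM plus 1 over genes with a mean of at least 1 CPM, and the 5 highest are named. Hepatocyte markers include Trf for Tf. Ppp1r3g was picked on these values, so the tests planned for its genotype differences are not given. The members and lists were chosen with earlier results of these data known.

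Mouse numbers in the titles pair the stages for 9 mice, since each mouse gave both samples per the design text. Residual correlations within a mouse ran from -0.075 to 0.21 over 12539 genes. Alternatives were RLE scaling, library size alone, no filter, DESeq2 1.42.0, only the samples compared, collection time as a term, the mouse as a block (edgeR, or limma 3.58.1 voom with a duplicate correlation of 0.04), leaving out each library, and the longest transcript as gene length.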

Additional observations from a re-analysis of the deposited data

Results flagged for a closer look

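Among 32 groups of 5 libraries (8 genes in 4 groups), 1 had a library far from the others. It was Gbe1 in KO after PHx, where mouse 12 held 74.09 CPM and the other 4 held 24.85 to 31.97 CPM. Chance puts about 1 in 20 groups past this limit. Mouse 12 was the only KO animal taken at 30 h, so the mouse and the time cannot be told apart. Without this library Gbe1 fell in KO by 1.03 on the log2 scale (edgeR adjusted p 0.00104).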

How the results depend on the processing

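Each comparison was repeated under 27 or 28 alternatives. Pygl in both responses, Ppp1r3b and Gyg in the WT response, and Gyg at baseline kept their call in all of them. Where another call moved, the cause was not tested. With only the samples compared, all genes called between genotypes were 5242 at baseline and 1345 after PHx, and 2878 in the KO response (39.5%, 9.69% and 20.6% of the genes in each fit). Members called were then 6, 0 and 2, and other pathway genes 13, 2 and 8. With library size alone, 3634 genes were called at baseline (24.8% of all genes), with 29.9% called in the WT response and 34.2% in the KO response. Members called were then 1 at baseline and 2 in the KO response. Other pathway genes called were 5 at baseline, all higher in KO, and 10 in the WT response, 8 higher and 2 lower. With the collection time as a term, 23.4% of all genes were called at baseline, 32.9% after PHx and 27.1% in the WT response. Members called in that fit were 4 at baseline, 6 after PHx and 7 in the WT response. Other pathway genes called were 8 at baseline, 11 in the WT response and 2 for the difference of responses. For that difference 308 genes were called in all (2.10%). DESeq2 called 5 other pathway genes at baseline, beside 20.8% of all genes. For the difference it called 1, beside 376 genes in all (2.67%). Without the filter 1 member was called at baseline and 1 after PHx, and 3 other pathway genes were called in the WT response. Of the 25585 genes then tested, 1613 were higher and 345 lower in KO at baseline, and 2641 and 953 after PHx. In the WT response 1600 were higher and 860 lower. The share of called genes higher in KO at baseline was 82.4%.

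With the mouse as a replicate block, 7 genes were called for the difference of responses in edgeR and 17 in limma voom, against 57 without it. Block values that changed a call of a member stand in the report. The sign of low changes turned under the block for Gys1 in the WT response (-0.24 and -0.016), Gys2 in the KO response (-0.16 and -0.14), and Pygl (0.11) and Ugp2 (0.052) in the difference. The time term turned Gys2 in the KO response (-0.11) and Ppp1r3b in the difference (-0.18). Library size alone turned Ppp1r3c (0.26), Ugp2 (0.085) and Gckr (0.37) at baseline.

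Leaving out 1 library gave 1644 to 2794 genes, 1 to 2 members and 1 to 5 other pathway genes called at baseline, and 2778 to 5126, 1 to 3 and 8 to 16 after PHx. It gave 2191 to 3381, 3 to 5 and 3 to 7 in the WT response, and 2962 to 6037, 2 to 5 and 11 to 19 in the KO response. For the difference it gave 22 to 708 genes, 0 members and 0 to 2 other pathway genes. Log2 changes whose sign turned ran from -0.42 to 0.068 for Ppp1r3c at baseline, from -0.19 to 0.42 for Gys2 after PHx, from -0.16 to 0.26 for Gys1 in the WT response, and from -0.20 to 0.31 for Gys2 in the KO response. For the difference they ran from -0.24 to 0.94 for Ppp1r3b, from -0.34 to 0.26 for Pygl and from -0.26 to 0.11 for Ugp2. Counts of 0 to 35 reads limit the precision of Ppp1r3g after PHx.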
